A study of Mus musculus with 22 samples.

Results

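The genes described here are 36 enzymes and regulators of cholesterol and fatty acid synthesis. They were chosen by symbol from pathway knowledge, by a rule that used no values but with earlier results of these data known. All 36 symbols matched 1 row each among the 34489 genes of the deposited gene count table, and all 36 passed the filter on low counts in every comparison. They fall by role into 5 regulators of the sterol regulatory element-binding proteins (SREBPs), 7 mevalonate enzymes, 11 enzymes of the sterol branch, 2 suppliers of cytosolic acetyl-CoA, 4 genes of fatty acid synthesis and elongation, 4 desaturases, 1 phosphatidate phosphatase, 1 sterol carrier (Stard4) and 1 cholesterol-esterifying enzyme (Soat1).

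The study asked whether activators of AMP-activated protein kinase (AMPK) turn primed mouse epiblast stem cells (mEpiSCs) back into naive-like cells, and the 22 bulk poly(A) RNA-seq libraries follow that course. The Oct4GIP line (129/Ola strain) carries an eGFPiresPuro reporter driven by Oct4 regulatory sequence, and it gave 1 primed library, 4 libraries of whole cultures at d8, 4 at d16, 4 of cells passaged 2 or 3 times in 2iL (d16+2p and d16+3p) and 5 after 10 passages (d16+10p). At d8 and d16 the cultures had been kept in Basal medium alone, with 2iL (2 kinase inhibitors plus leukemia inhibitory factor, LIF), with the AMPK activator AICAR, or with AICAR+LIF. The d16+2p and d16+3p cells came from AICAR and AICAR+LIF cultures, and the d16+10p cells from these and from cultures given A769662 (alone or with LIF) or metformin with LIF. The 129/MSM line, from 129X1/SvJ females mated with MSM/Ms males, gave 1 primed library and 2 d16+10p libraries (AICAR and AICAR+LIF). The remaining library, 1 in number, came from Rex1-GFP naive mouse embryonic stem cells (mESCs, 129/Ola strain). The study lists Oct4GIP and Rex1-GFP as XX and 129/MSM as XY. All d16+2p, d16+3p and d16+10p cells had been moved from the activator into 2iL at d16, so only the d8 and d16 AICAR libraries were read under an AMPK activator.

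No condition had a replicate library. The spread within a group therefore holds activator, passage and, at d16+10p, line, and p-values measure differences against that spread. Medium changed together with state: primed Oct4GIP cells were kept in serum-free Ndiff227 on fibronectin, primed 129/MSM cells in a serum-replacement medium on mouse embryonic fibroblast (MEF) feeders, the d8 and d16 cultures in Basal medium (serum replacement plus serum) on MEFs, and the 2iL cells without feeders in Ndiff227 or Basal medium. Lipid supply, feeders and cell state cannot be told apart in these groups.

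Cholesterol is built from acetyl-CoA through mevalonate, farnesyl diphosphate, squalene and lanosterol, and fatty acids from the same acetyl-CoA through malonyl-CoA. SREBP transcription factors (Srebf1, Srebf2) are escorted by Scap to the Golgi and released when sterols are low, while Insig1 and Insig2 hold the complex in the endoplasmic reticulum when sterols are plentiful. Serum and feeders supply cells with lipid, and AMPK is known to phosphorylate and inhibit acetyl-CoA carboxylase (Acaca, Acacb) and the reductase of the mevalonate pathway, which are changes of activity that RNA counts do not read.

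Total counts ran from 438771 (AICAR+LIF d8) to 5290163 (basal d16), with AICAR d8 (956357) and AICAR d16+10p (1689495) next lowest and the others at 2396575 or more. Levels are given as CPM, the count as a share of the library's TMM-scaled total; 3 counts correspond to 0.556 CPM in the deepest library and 5.75 CPM in the shallowest. The AICAR and AICAR+LIF libraries at d16+2p were nearly alike, with a chi-square of their counts of 1.39 per degree of freedom over 13451 genes. The next closest pair, AICAR and AICAR+LIF at d8, gave 1.76, and the closest pair at d16+10p gave 4.18. Other groups were spread more widely: the 2 primed libraries gave 29.5, and pairs at d16 gave 8.82 to 45.3. The 8 naive markers summed to between 2373 and 4096 CPM in reverted cells and 3692 CPM in naive mESCs, against 17.9 and 33.8 CPM in the primed libraries. The 8 primed markers did not separate the groups as clearly, with 2678 CPM in primed 129/MSM but 394 CPM in primed Oct4GIP, below the 460 to 602 CPM of d16+2p and d16+3p. The primed sum at d16+2p and d16+3p was mostly Dnmt3b (1153 to 1795 counts), and no other primed marker had more than 50 counts there. The d8 and d16 cultures held little RNA of the naive markers (13.7 to 78.4 CPM) and much mesenchymal RNA. Of the 12 MEF and mesenchymal markers, Fn1 was also high outside the cultures, with 3828 to 9670 counts in reverted cells and 6065 in naive mESCs. With Fn1 the 12 summed to 3591 to 5459 CPM at d8 and 6137 to 52912 CPM at d16, against 1470 to 3055 CPM in reverted cells. The 11 markers other than Fn1 summed to between 2801 and 3172 CPM (d8) and between 5464 and 50215 CPM (d16). Reverted cells held 8.02 to 94.6 CPM of these 11, naive mESCs 18.9 CPM, primed Oct4GIP 35.1 CPM and primed 129/MSM 567 CPM. Basal d16 also held 21543 counts of Ttr, a transthyretin gene of liver and visceral endoderm, while Alb and Afp had at most 4 counts in any library. Of the adipocyte markers, Adipoq had at most 1 count in any library, but Fabp4 had 311 counts in 2iL d16. The 6 adipocyte markers summed to 207 CPM in 2iL d16 and to 23.7 to 32.8 CPM in the other d16 cultures. In whole cultures, fewer cells of a type and less RNA per cell cannot be told apart.

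By chromosome, 5 of the 36 genes lie on chromosome 19, more than on any other: Scd2 at 44293674 to 44306864 on the forward strand, Scd1 at 44394455 to 44407879 on the reverse strand, Fads2 at 10062765 to 10101746, Fads1 at 10182888 to 10196877, and Tm7sf2 (GRCm38, GENCODE M21). Promoter windows were at hand from RefSeq (GRCm38.p6) for 29 of the 36 genes, and they were searched on both strands for the sterol response element letters TCACNCCAC and CACCCCAC, the NF-Y box CCAAT and the E-box CACGTG. Hmgcs1 and Acat2 were the only members with CACCCCAC (2 of 29 genes, against 3.3% of all 27025 genes with a window), and Hmgcs1 alone held TCACNCCAC (1 of 29, against 1.44%), at overlapping positions. The CCAAT letters were in 23 of 29 (79.3%, against 41.1% of all genes), and CACGTG in 5 of 29 (17.2%, against 8.09%). A match is a string of letters and not a shown binding site.

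The 250 bases before the start are shown for 6 genes, with the searched letters on either strand in capitals. Hmgcs1 and Acat2 hold the sterol response element letters, Cyp51 is a sterol enzyme, Insig1 a regulator whose level followed the enzymes in reverted cells and in cultures, Fasn a gene that followed them in reverted cells (median correlation 0.73) and not in cultures (0.04), and Elovl6 one that followed them in neither (-0.06 and 0.22).
Hmgcs1, chr13:119690101-119690350, forward strand: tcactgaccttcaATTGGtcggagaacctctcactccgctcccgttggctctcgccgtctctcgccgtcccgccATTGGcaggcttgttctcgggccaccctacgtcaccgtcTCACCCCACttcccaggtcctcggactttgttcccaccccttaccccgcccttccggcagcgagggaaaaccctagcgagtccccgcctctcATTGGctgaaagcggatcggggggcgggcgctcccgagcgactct
Acat2, chr17:12960726-12960975, reverse strand: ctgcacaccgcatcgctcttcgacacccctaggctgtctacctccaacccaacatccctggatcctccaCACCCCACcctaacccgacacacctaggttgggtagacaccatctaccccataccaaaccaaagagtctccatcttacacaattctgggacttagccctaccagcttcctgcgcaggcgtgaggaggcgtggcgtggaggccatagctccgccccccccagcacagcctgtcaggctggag
Cyp51, chr5:4104698-4104947, reverse strand: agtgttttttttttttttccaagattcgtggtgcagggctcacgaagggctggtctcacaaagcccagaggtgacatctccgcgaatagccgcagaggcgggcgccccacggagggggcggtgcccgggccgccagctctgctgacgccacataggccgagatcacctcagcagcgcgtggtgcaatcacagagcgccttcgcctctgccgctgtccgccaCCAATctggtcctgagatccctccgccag
Insig1, chr5:28071162-28071411, forward strand: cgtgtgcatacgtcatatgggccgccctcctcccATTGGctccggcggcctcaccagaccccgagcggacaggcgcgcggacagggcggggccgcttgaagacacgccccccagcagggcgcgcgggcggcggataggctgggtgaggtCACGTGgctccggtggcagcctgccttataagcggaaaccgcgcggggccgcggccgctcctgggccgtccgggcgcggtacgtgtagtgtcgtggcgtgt
Fasn, chr11:120824548-120824797, reverse strand: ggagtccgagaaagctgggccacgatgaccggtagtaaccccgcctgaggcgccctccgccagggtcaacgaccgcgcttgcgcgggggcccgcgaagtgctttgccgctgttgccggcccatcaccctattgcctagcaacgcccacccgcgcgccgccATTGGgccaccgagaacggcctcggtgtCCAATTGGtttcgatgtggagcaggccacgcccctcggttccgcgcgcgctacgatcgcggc
Elovl6, chr3:129532136-129532385, forward strand: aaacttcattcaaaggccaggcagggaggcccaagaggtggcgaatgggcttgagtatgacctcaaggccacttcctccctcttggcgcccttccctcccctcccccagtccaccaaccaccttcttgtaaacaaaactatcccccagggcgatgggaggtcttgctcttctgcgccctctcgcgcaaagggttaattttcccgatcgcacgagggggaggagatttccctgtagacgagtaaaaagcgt

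Summed over the 36 genes, the level was 13520 CPM in primed Oct4GIP and 10935 CPM in primed 129/MSM, the 2 highest of all libraries. It ran from 4307 to 7798 CPM at d8, from 7042 to 8735 CPM at d16, from 3780 to 4424 CPM at d16+2p and d16+3p, and from 7374 to 9155 CPM at d16+10p, with 7921 CPM in naive mESCs. The early reverted cells were thus the lowest group but for AICAR+LIF d8 (4307 CPM), which lay inside their range. Per kilobase of the longest annotated transcript, Scd2, which inserts the first double bond into saturated fatty acids, was the most abundant of the 36 in primed cells (485 CPM per kb), d8 (244), d16 (460), d16+10p (346) and naive mESCs (339). At d16+2p and d16+3p, Acly, which cleaves citrate to cytosolic acetyl-CoA, came first (135 CPM per kb) and Scd2 second (91.9).

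**Figure D1:**
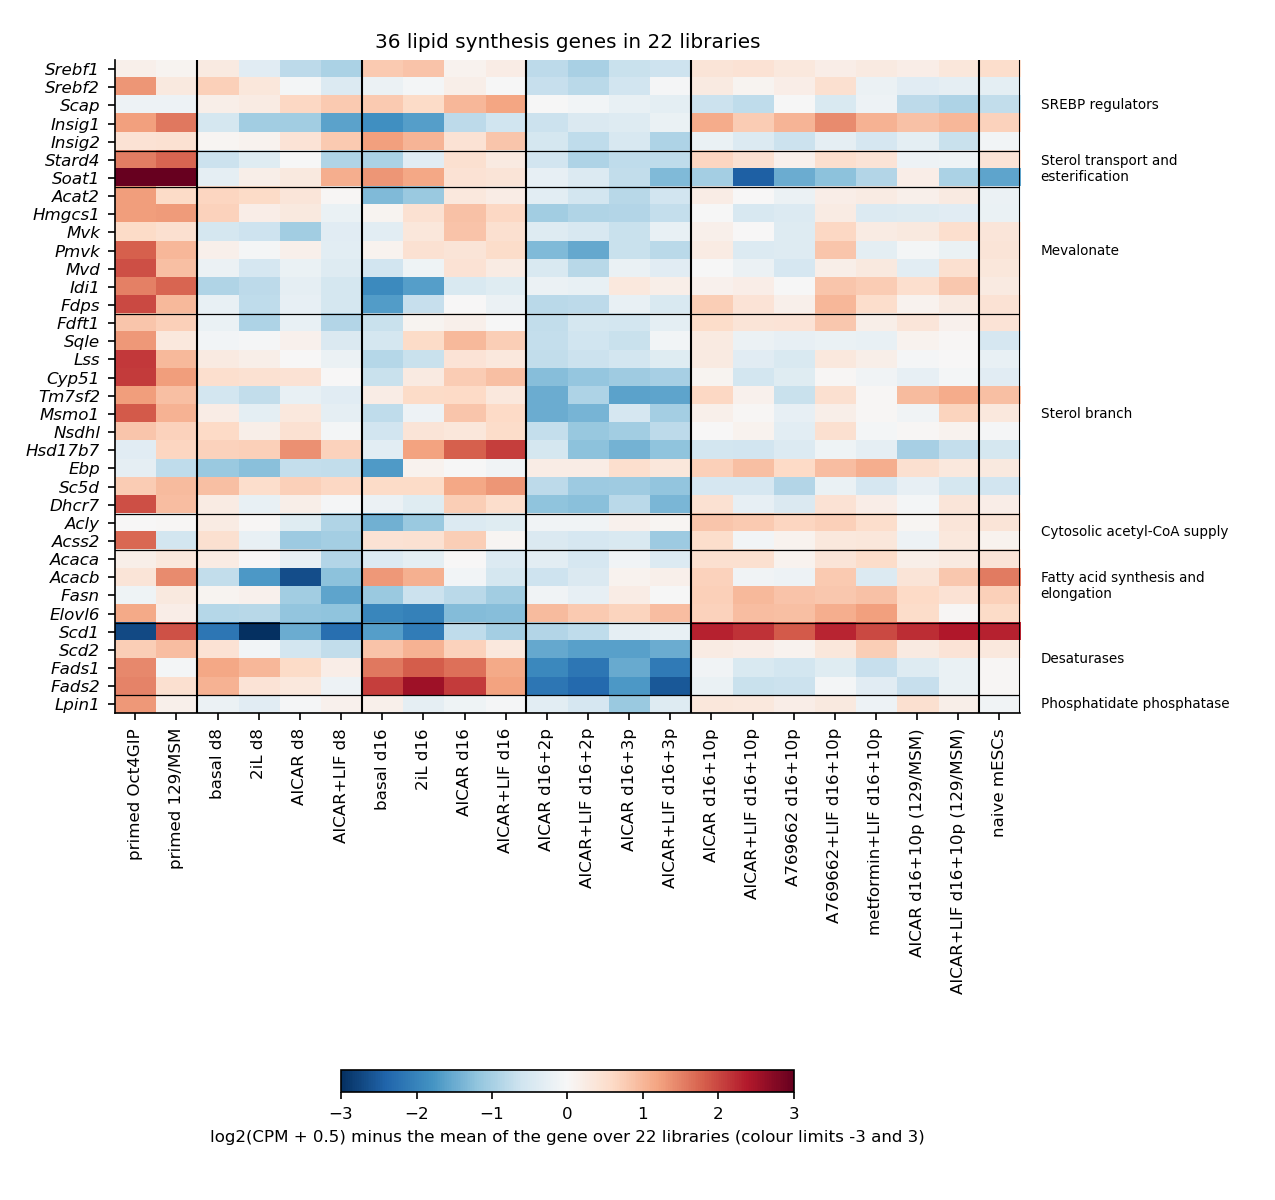
Level of each of the 36 genes (rows, by role) in each of the 22 libraries (columns, by group), as log2(CPM + 0.5) minus the mean of that gene over all libraries, with colours limited to -3 and 3. Most rows are red in the primed columns and blue in the 4 columns of d16+2p and d16+3p, and Scd1 is red in the d16+10p, naive and primed 129/MSM columns.

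Srebf2 and Hmgcs1 show the course of the sterol genes over the groups. Srebf2 was at 993 CPM in primed Oct4GIP and 482 CPM in primed 129/MSM, at 297 to 653 CPM at d8, 351 to 443 CPM at d16, 227 to 384 CPM at d16+2-3p, 313 to 554 CPM at d16+10p and 322 CPM in naive mESCs. Hmgcs1 was at 1000 and 1017 CPM in the primed libraries, at 370 to 681 CPM at d8, 446 to 773 CPM at d16, 203 to 255 CPM at d16+2-3p and 367 CPM in naive mESCs. The passaged groups of Hmgcs1 lay apart, the earlier one below the 302 CPM that was the lowest at d16+10p. Sqle was at 410 and 207 CPM in the primed libraries, at 123 to 182 CPM at d8, 116 to 327 CPM at d16, 102 to 158 CPM at d16+2-3p, 140 to 202 CPM at d16+10p and 117 CPM in naive mESCs. Both primed libraries lay above d8 and naive mESCs lay below d16+10p, while the groups between them overlapped with their neighbours.

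Fasn and Acaca, the fatty acid synthase and the carboxylase that feeds it, were ordered differently. Fasn was at 598 CPM in primed Oct4GIP and 800 CPM in primed 129/MSM, at 216 to 713 CPM at d8, 302 to 416 CPM at d16, 543 to 759 CPM at d16+2-3p, 871 to 1267 CPM at d16+10p and 1074 CPM in naive mESCs. Acaca was at 116 and 127 CPM in the primed libraries, at 55.6 to 120 CPM at d8, 76.4 to 103 CPM at d16, 71.7 to 94.9 CPM at d16+2-3p, 109 to 149 CPM at d16+10p and 134 CPM in naive mESCs. For both, every d16+10p library was above every d16+2-3p and d16 library. Scap ran the other way, at 66.1 and 66.3 CPM in the primed libraries, 84.0 to 128 CPM at d8, 110 to 168 CPM at d16, 60.5 to 73.9 CPM at d16+2-3p and 38.7 to 73.8 CPM at d16+10p, with 44.5 CPM in naive mESCs.

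The first step ran from primed cells into the d8 and d16 cultures. Sterol synthesis genes were lower in the cultures: of the 18 mevalonate and sterol enzymes, 12 were lower, none was higher and 6 did not pass the test. Over all 36 genes, 20 were lower and 1 (Scap) was higher, against 19.4% lower and 18.1% higher among 18739 genes tested, and the members' median log2 difference was -0.83 against 0.04 for all genes. Every adjusted p is from edgeR's quasi-likelihood test with Benjamini-Hochberg adjustment over all genes tested, called at 0.05.

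Soat1, which esterifies cholesterol for storage, was at 1191 CPM in primed Oct4GIP and 417 CPM in primed 129/MSM. In the cultures it was at 43.6, 59.5, 63.9 and 113 CPM in basal, 2iL, AICAR and AICAR+LIF at d8, and at 132, 118, 71.0 and 69.2 CPM at d16. Both primed libraries lay above all 8 cultures, a log2 difference of -3.25 ± 0.40 (SE, adjusted p = 4.94e-06), or -2.30 without primed Oct4GIP and -3.87 without primed 129/MSM. Insig1, which retains the SREBP complex in the endoplasmic reticulum, was at 266 and 338 CPM in the primed libraries. In the cultures it was between 31.0 and 77.8 CPM, again without overlap (-2.41 ± 0.24, adjusted p = 4.37e-07). Idi1, the isopentenyl diphosphate isomerase, was at 274 and 323 CPM against 25.2 to 79.4 CPM, a log2 difference of -2.36 ± 0.28 (adjusted p = 3.59e-06).

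Elovl6, which extends palmitate to stearate, fell by 1.98 ± 0.23 on the log2 scale (452 CPM in primed Oct4GIP, 234 CPM in primed 129/MSM, 49.9 to 114 CPM in the cultures, adjusted p = 3.72e-06). Scap, the SREBP escort, was the only member called higher: 66.1 and 66.3 CPM in the primed libraries against 84.0 to 168 CPM in the cultures (0.90 ± 0.22, adjusted p = 0.00362). Fads1 and Fads2, which make polyunsaturated fatty acids, did not pass (0.35 ± 0.29 and 0.26 ± 0.31), nor did Scd2 (-0.47 ± 0.22), Acaca (-0.38 ± 0.19) or Fasn (-0.69 ± 0.28, adjusted p = 0.0543). The primed reference rests on 2 libraries of different lines: without primed Oct4GIP the calls fell from 21 to 13 (2 higher, 11 lower). Scd1 was called lower (-2.67 ± 0.51, adjusted p = 0.00047), but primed Oct4GIP at 17.9 CPM lay inside the range of the cultures (13.3 to 70.4 CPM) and only primed 129/MSM, at 457 CPM, lay above it; without the 129/MSM library the difference turned to 1.002 (adjusted p = 0.126).

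**Figure D2:**
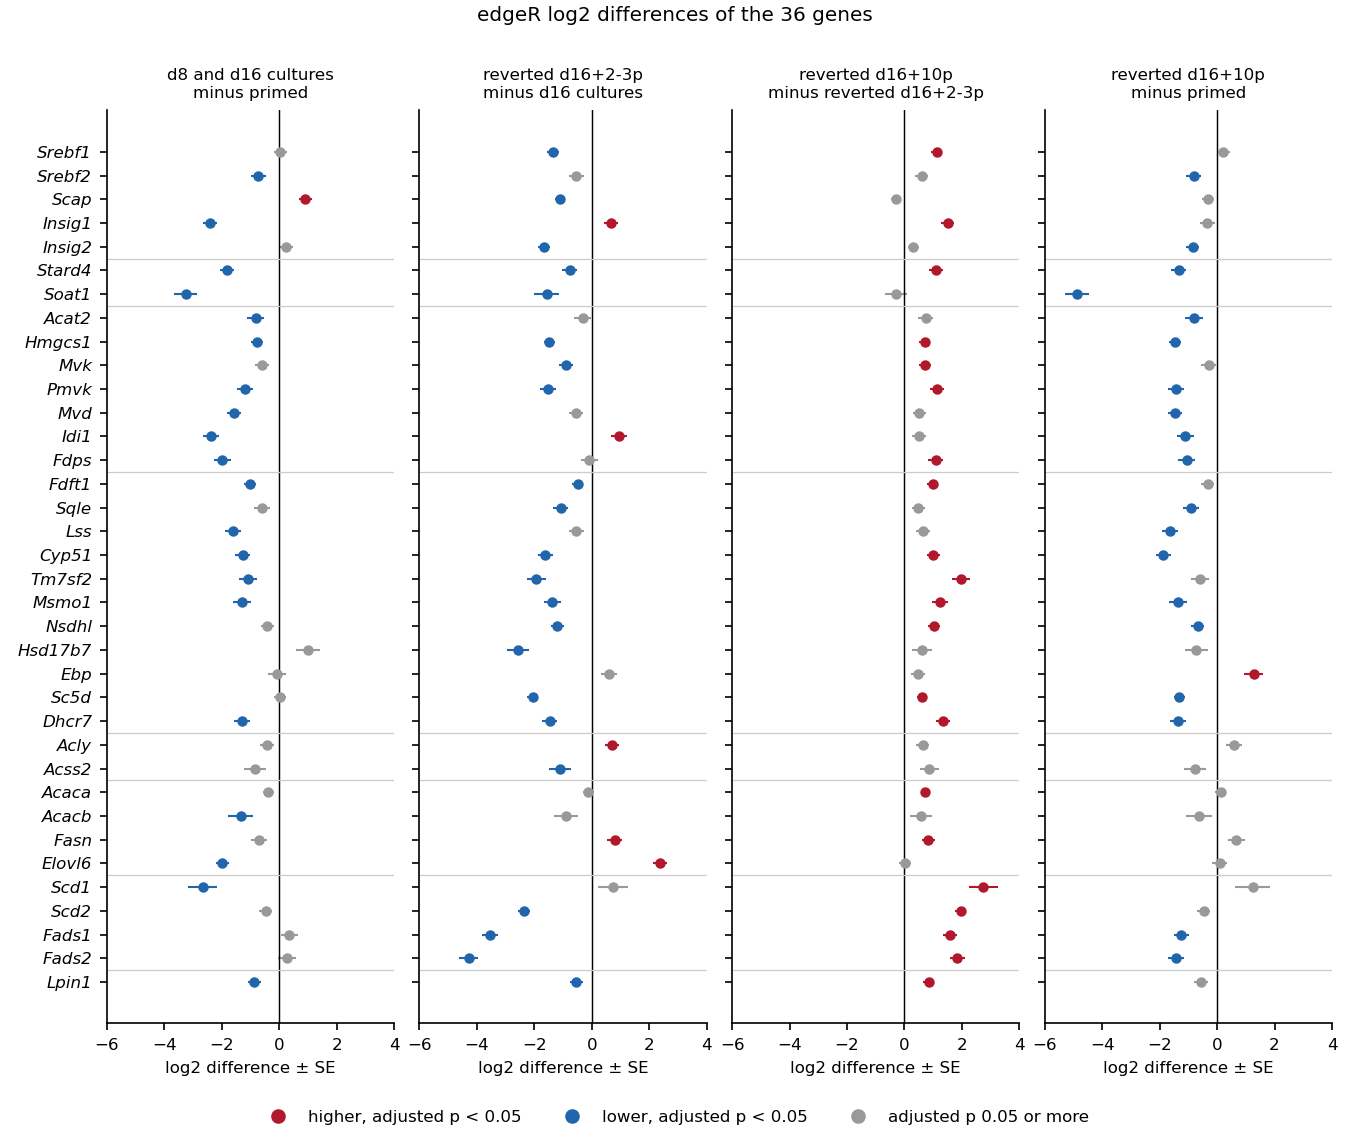
Log2 differences (points) with standard errors (bars) of the 36 genes in 4 comparisons, each titled as the first group minus the second; red and blue mark genes called higher and lower at an adjusted p under 0.05, grey the rest. In d16+10p minus d16+2-3p all red points are to the right and none is blue (21 higher, 0 lower), and in d16+10p minus primed 19 are blue and 1 (Ebp) is red.

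The second step ran from d16 cultures to cells passaged 2 or 3 times in 2iL. Desaturases and sterol-branch enzymes were lower in the passaged cells: 3 of 4 desaturases, 9 of 11 sterol-branch enzymes and 3 of 7 mevalonate enzymes fell. Acly, Fasn, Elovl6, Idi1 and Insig1 went the other way. In all 22 were lower and 5 higher, against 37.9% lower and 33.2% higher among all genes, with a median of -0.99 against -0.15 for all genes. The d16 cultures held 5464 to 50215 CPM of the 11 mesenchymal markers against 8.02 to 94.6 CPM, and the part of these other cells in the differences was not tested.

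Fads2 was at 729, 1015, 745 and 402 CPM in basal, 2iL, AICAR and AICAR+LIF at d16, and at 37.9, 34.0, 52.2 and 29.2 CPM in AICAR d16+2p, AICAR+LIF d16+2p, AICAR d16+3p and AICAR+LIF d16+3p. The lowest culture was above the highest passaged library by several fold, and the log2 difference was -4.29 ± 0.32 (adjusted p = 5.84e-10). Fads1 fell by 3.55 ± 0.29 on the log2 scale (406 to 649 CPM at d16, 40.4 to 64.0 CPM after passaging, adjusted p = 1.73e-09). Scd2 fell by 2.38 ± 0.21 (1864 to 3087 CPM at d16, 478 to 529 CPM after passaging, adjusted p = 6.1e-09), and Hsd17b7, a ketoreductase of the sterol branch, fell by 2.57 ± 0.38 (adjusted p = 4.79e-06).

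Elovl6 was at 52.3, 49.9, 82.8 and 84.5 CPM in the d16 cultures and at 393, 353, 325 and 387 CPM in the passaged cells, in the order given above. The groups did not overlap, with a log2 difference of 2.38 ± 0.25 (adjusted p = 4.61e-08). Idi1 (0.94 ± 0.29, adjusted p = 0.00628), Fasn (0.80 ± 0.26, adjusted p = 0.00983) and Acly (0.70 ± 0.24, adjusted p = 0.0132) also had each passaged library above each culture. Acly no longer passed without AICAR d16+3p, basal d16 or 2iL d16 (adjusted p up to 0.0747), nor Fasn without AICAR d16+3p (0.64, adjusted p = 0.0521). With passages summed neither passed (adjusted p = 0.0749 for Acly and 0.0598 for Fasn). Scd1, 65.6 to 103 CPM after passaging and 27.6 to 70.4 CPM at d16, did not pass (0.74 ± 0.52, adjusted p = 0.206).

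The third step compared 10 with 2 or 3 passages in 2iL, where the 11 mesenchymal markers were low in both groups (8.02 to 94.6 and 13.5 to 17.0 CPM). The summed markers of cell state differed between the groups without overlap. The 8 primed markers summed to 460 to 602 CPM at d16+2-3p and 74.8 to 247 CPM at d16+10p. The 8 naive markers summed to 2373 to 2983 CPM and 3017 to 4096 CPM. Dnmt3b made up most of the primed sum at d16+2-3p. By single genes, 1 of the 8 primed markers was called lower and 1 of the 8 naive markers higher at d16+10p. The part of these markers in the differences was not tested. Lipid synthesis genes rose with passage: all 4 desaturases, 7 of 11 sterol-branch and 4 of 7 mevalonate enzymes, Insig1, Srebf1, Stard4, Acaca, Fasn and Lpin1 were higher at d16+10p, while the 2 acetyl-CoA suppliers and Soat1 did not pass. In all 21 of 36 were higher and none lower, against 4.75% higher and 4.61% lower among all 18739 genes, and the members' median log2 difference was 0.79 against -0.00 for all genes. For 21 genes every d16+10p library lay above every d16+2p and d16+3p library, as for 5.19% of all genes.

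Scd1 was at 65.6, 71.3, 101 and 103 CPM in AICAR d16+2p, AICAR+LIF d16+2p, AICAR d16+3p and AICAR+LIF d16+3p, and at 432 (lowest), 565 (median) and 639 (highest) CPM in the 7 d16+10p libraries. The gap between the groups was wider than the range within either, and the log2 difference was 2.74 ± 0.51 (adjusted p = 0.00195). Scd2 was at 516, 478, 483 and 529 CPM in the same 4 libraries and at 1609, 1791 and 2482 CPM (lowest, median, highest) at d16+10p, a log2 difference of 1.96 ± 0.19 (adjusted p = 8.87e-06). Together the desaturases summed to 674 ± 36.9 CPM (SD, n = 4) and 2716 ± 302 CPM (SD, n = 7).

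Tm7sf2, a sterol reductase, was at 5.85, 8.77, 5.33 and 5.47 CPM at d16+2-3p, near the level of few counts, and at 10.7, 24.4 and 38.0 CPM (lowest, median, highest) at d16+10p (1.97 ± 0.30, adjusted p = 0.000487). Fads2 was at 37.9, 34.0, 52.2 and 29.2 CPM and then at 108, 138 and 166 CPM (1.84 ± 0.27, adjusted p = 0.000427). Fads1 differed by 1.59 ± 0.25 (adjusted p = 0.000598) and Insig1, at 72.0 to 97.0 CPM and then 192 to 303 CPM, by 1.51 ± 0.23 (adjusted p = 0.000427).

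Srebf1 was at 79.1, 69.0, 85.3 and 87.9 CPM at d16+2-3p and at 156, 171 and 184 CPM (lowest, median, highest) at d16+10p, without overlap (1.12 ± 0.19, adjusted p = 0.00102). Srebf2, the SREBP gene that chiefly drives sterol enzymes, did not pass (0.60 ± 0.23, adjusted p = 0.103), nor did Scap (-0.31 ± 0.17) or Insig2 (0.30 ± 0.19). Hmgcs1, which makes HMG-CoA, was higher by 0.70 ± 0.18 (adjusted p = 0.0174), Acaca by 0.73 ± 0.16 (adjusted p = 0.00615) and Fasn by 0.83 ± 0.24 (adjusted p = 0.0297), while squalene epoxidase (Sqle) did not pass (0.49 ± 0.23, adjusted p = 0.217). Elovl6 had the value nearest 0 (0.03 ± 0.20) and Soat1 a negative one (-0.28 ± 0.38).

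Activator and line differ between these groups as well as passage. The medium of each 2iL library, Ndiff227 or Basal, is not given. Any difference of medium between these groups cannot be told apart from passage. With the Oct4GIP libraries alone 22 genes were called, all higher. With only the AICAR and AICAR+LIF Oct4GIP libraries at d16+10p, which match the earlier treatments, 10 were called, all higher, and the members' median was 0.91. With the d16+2p and d16+3p counts of each treatment summed, since both passages may come from 1 culture, 10 were called, all higher, with a median of 0.78.

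**Figure D3:**
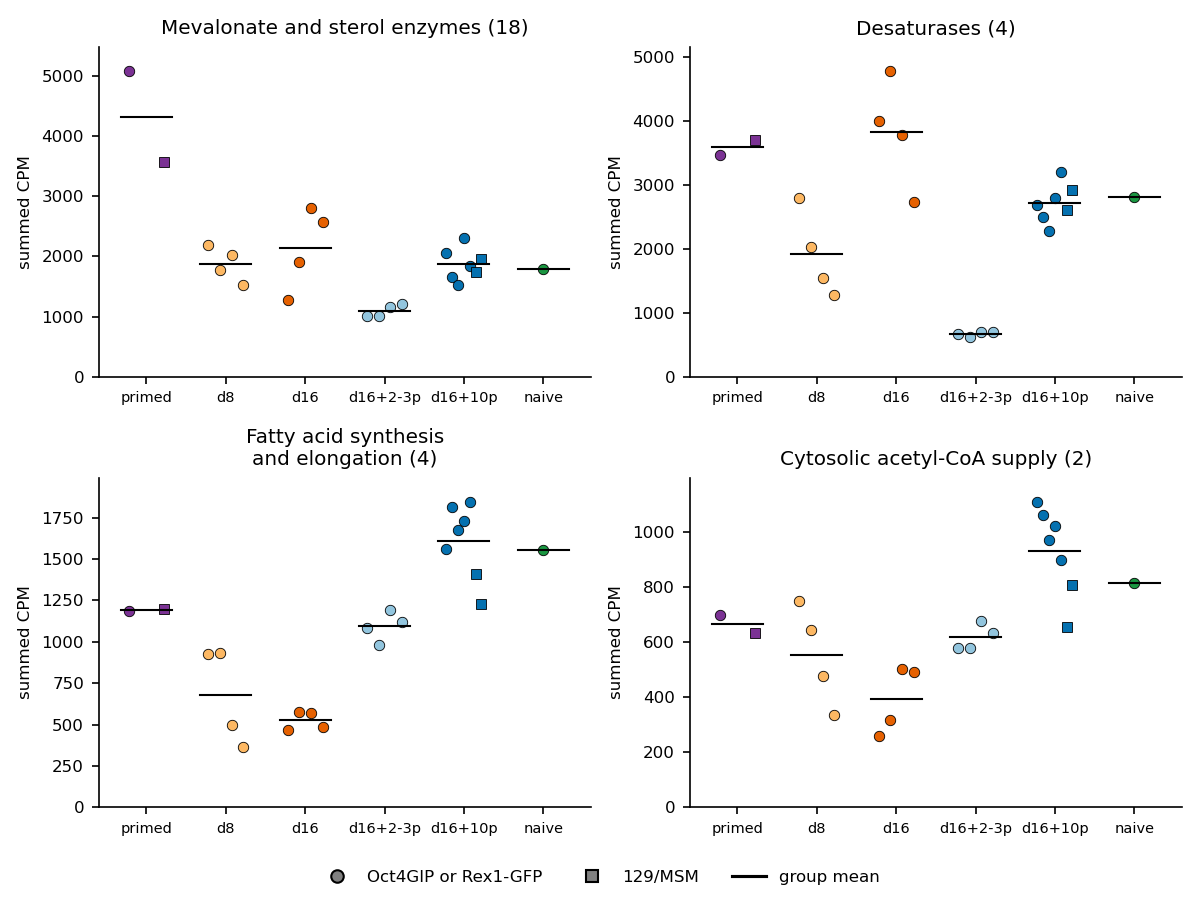
Summed CPM of 4 gene groups in each library (points, squares for 129/MSM) with group means (lines), in the order of the course from primed to d16+10p and naive mESCs. The desaturase sum lies between 624 and 703 CPM at d16+2-3p and between 2278 and 3211 CPM at d16+10p, and the sum of the 18 mevalonate and sterol enzymes is highest in the 2 primed libraries (5069 and 3572 CPM).

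Reverted cells at d16+10p were then set against primed cells, the start and end of the course. Most sterol synthesis genes were lower in reverted cells, and genes of fatty acid synthesis and elongation were not called in either direction. Of the 18 mevalonate and sterol enzymes, 13 were lower and 1 (Ebp) higher. None of the 4 genes of fatty acid synthesis and elongation and neither acetyl-CoA supplier passed. Over all 36 genes, 19 were lower and 1 higher, against 19.9% lower and 16.7% higher among all genes, with a median of -0.78 against -0.01 for all genes. The 18 enzymes summed to 5069 CPM (Oct4GIP) and 3572 CPM (129/MSM) in primed cells and to 1527, 1846 and 2304 CPM (lowest, median, highest) at d16+10p, without overlap.

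Soat1 was at 9.21, 25.7 and 60.3 CPM (lowest, median, highest) at d16+10p against 1191 and 417 CPM in the primed libraries, the largest difference of any member (-4.86 ± 0.42, adjusted p = 2.58e-08). Cyp51, the lanosterol demethylase, was at 596 CPM in primed Oct4GIP and 329 CPM in primed 129/MSM and at 95.01, 128 and 147 CPM at d16+10p (-1.87 ± 0.26, adjusted p = 1.03e-05). Lss, which closes the ring to lanosterol, was at 435 and 194 CPM and then at 72.3, 99.2 and 123 CPM (-1.63 ± 0.28, adjusted p = 0.000113). Without primed Oct4GIP the Lss difference was -0.93 and no longer passed (adjusted p = 0.0502), and that of Soat1 was -3.91 (adjusted p = 2.72e-06). Hmgcs1 was at 1000 and 1017 CPM and then at 302, 320 and 501 CPM (-1.47 ± 0.21, adjusted p = 1.29e-05).

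Ebp, the sterol isomerase, moved the other way, from 23.9 and 16.7 CPM to 36.04, 47.5 and 61.8 CPM (1.27 ± 0.33, adjusted p = 0.00513), a call lost without primed 129/MSM (1.03, adjusted p = 0.0975). Srebf2 was lower (-0.81 ± 0.27, adjusted p = 0.0219) and Srebf1 was not called (0.22 ± 0.24). Insig1 (-0.35 ± 0.26), Scap (-0.31 ± 0.21), Acaca (0.13 ± 0.20), Fasn (0.67 ± 0.31, adjusted p = 0.092), Scd1 (1.24 ± 0.62) and Scd2 (-0.47 ± 0.22) did not pass, while Sqle was lower by 0.91 ± 0.28 (adjusted p = 0.0133). The count rested much on 1 library: without primed Oct4GIP 8 genes were called, 7 lower and 1 higher.

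For 4 genes the difference between reverted and primed cells was not the same in 129/MSM as in Oct4GIP, by a test of the interaction itself over 6 libraries: Scd1 (-4.60 ± 0.30, adjusted p = 0.000193), Soat1 (2.94 ± 0.69, adjusted p = 0.0371), Acss2 (2.17 ± 0.49, adjusted p = 0.0333) and Fads1 (1.48 ± 0.31, adjusted p = 0.0267). That is 3 genes higher and 1 lower, against 2.46% higher and 3.66% lower among 15632 genes tested. DESeq2 called 2 of them (Scd1 and Fads1). Each primed value here is a single library, so the spread in this test comes only from the AICAR and AICAR+LIF pair of each line at d16+10p. Primed media, strain and sex chromosomes differed between the lines. Primed 129/MSM also held 567 CPM of the 11 mesenchymal markers, against 35.1 CPM in primed Oct4GIP. Of the primed marker Cer1 it held 2367 counts, against 1 in primed Oct4GIP. The part of these in the differences between lines was not tested.

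Scd1 was at 17.9 CPM in primed Oct4GIP and at 604 and 545 CPM in its AICAR and AICAR+LIF d16+10p cells, while 129/MSM held 457 CPM primed and 565 and 639 CPM at d16+10p. The lines thus met at d16+10p and stood apart when primed. Acss2, which makes acetyl-CoA from acetate, was at 93.8 CPM in primed Oct4GIP and 40.8 and 26.3 CPM at d16+10p, against 19.0 CPM in primed 129/MSM and 25.1 and 34.9 CPM at d16+10p. Fads1 was at 504 CPM in primed Oct4GIP and 178 CPM in primed 129/MSM, with 173 and 135 CPM and 141 and 160 CPM in their reverted cells. Soat1 was higher in primed than in reverted cells in both lines, by 68.2-fold in Oct4GIP and 9.57-fold in 129/MSM.

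**Figure D4:**
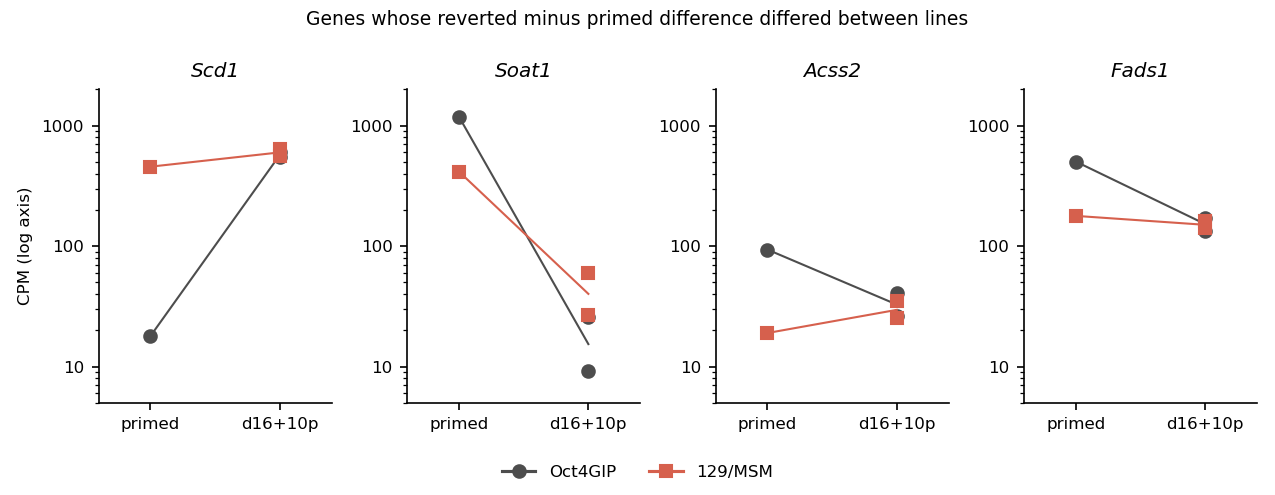
CPM (log axis) of the 4 genes whose reverted minus primed difference was called different between lines, in primed cells (1 library per line) and in AICAR and AICAR+LIF d16+10p cells (2 libraries per line); lines join the primed value to the geometric mean at d16+10p. Scd1 starts at 17.9 CPM in primed Oct4GIP and 457 CPM in primed 129/MSM and ends between 545 and 639 CPM in both.

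With the 3 matched conditions pooled, no member differed between 129/MSM and Oct4GIP in edgeR, against 0.0926% higher and 0.0232% lower among all 12954 genes tested. At an unadjusted p under 0.05 there were 3 of the 36 members, against 1422 of all 12954 genes tested. DESeq2 and limma voom also called 0 members. Leaving out either primed library gave 3 calls. Srebf2 had the smallest p, with 313 to 482 CPM in 129/MSM and 418 to 993 CPM in Oct4GIP, which overlap (-0.67 ± 0.22, adjusted p = 0.331). Elovl6 had all 3 129/MSM libraries (210 to 301 CPM) below all 3 Oct4GIP libraries (333 to 452 CPM), a log2 difference of -0.67 ± 0.22 (adjusted p = 0.339).

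AICAR was the only AMPK activator present when RNA was taken, in 4 of the 8 d8 and d16 cultures. With day in the model, Idi1 was higher (0.97 ± 0.20, adjusted p = 0.0232) and Srebf1 lower (-0.71 ± 0.16, adjusted p = 0.0289) with AICAR, and the other 34 genes did not pass, against 3.54% higher and 6.06% lower among 14026 genes. Idi1 was at 79.4 CPM (AICAR) and 67.1 CPM (AICAR+LIF) at d8 and at 69.5 and 74.5 CPM at d16, against 51.4 and 55.6 CPM in basal and 2iL at d8 and 25.2 and 30.0 CPM at d16, without overlap. Srebf1 was at 79.4 and 70.9 CPM with AICAR against 164 and 107 CPM without at d8, and at 146 and 158 CPM against 235 and 247 CPM at d16, so each AICAR library was below the others of its own day. Neither gene was called when basal d8, AICAR d8, basal d16, AICAR d16 or AICAR+LIF d16 was left out, and Idi1 alone was called without AICAR+LIF d8. Without both low-count libraries (AICAR and AICAR+LIF d8) no member was called, and DESeq2 called 6 and limma voom 5.

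The values of the sterol enzymes with and without AICAR were also read day by day. At d16 the 18 mevalonate and sterol enzymes were all higher in the mean of the 2 AICAR libraries than in the mean of the 2 others, with a median log2 ratio of 0.70, whereas 48.2% of all genes were higher. At d8, 9 of the 18 were higher, with a median of -0.02, whereas 43.2% of all genes were higher. Of the 11 acetyl-CoA, fatty acid and phosphatidate enzymes, desaturases included, 2 were higher with AICAR at d8 (median -0.65) and 4 at d16 (median -0.03). The 18 mevalonate and sterol enzymes summed at d16 to 1279 CPM (basal), 1902 CPM (2iL), 2795 CPM (AICAR) and 2572 CPM (AICAR+LIF). At d8 these 18 summed to 2181, 1767, 2019 and 1527 CPM in the same order. The interaction of day and AICAR, chosen after seeing these values, called none of the 36 genes in edgeR (0.0452% of all genes higher, 0.0905% lower). At an unadjusted p under 0.05 there were 14 of the 36 members, against 2272 of all 15473 genes tested. DESeq2 called 4 and limma voom 0. Acat2, the acetoacetyl-CoA thiolase, came nearest (1.79 ± 0.26, adjusted p = 0.0586). Basal d16 held 21543 counts of Ttr and 2iL d16 the most mesenchymal RNA (50215 CPM of 11 markers, against 16738 and 18850 CPM in AICAR and AICAR+LIF d16), and their part in the d16 values was not tested.

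**Figure D5:**
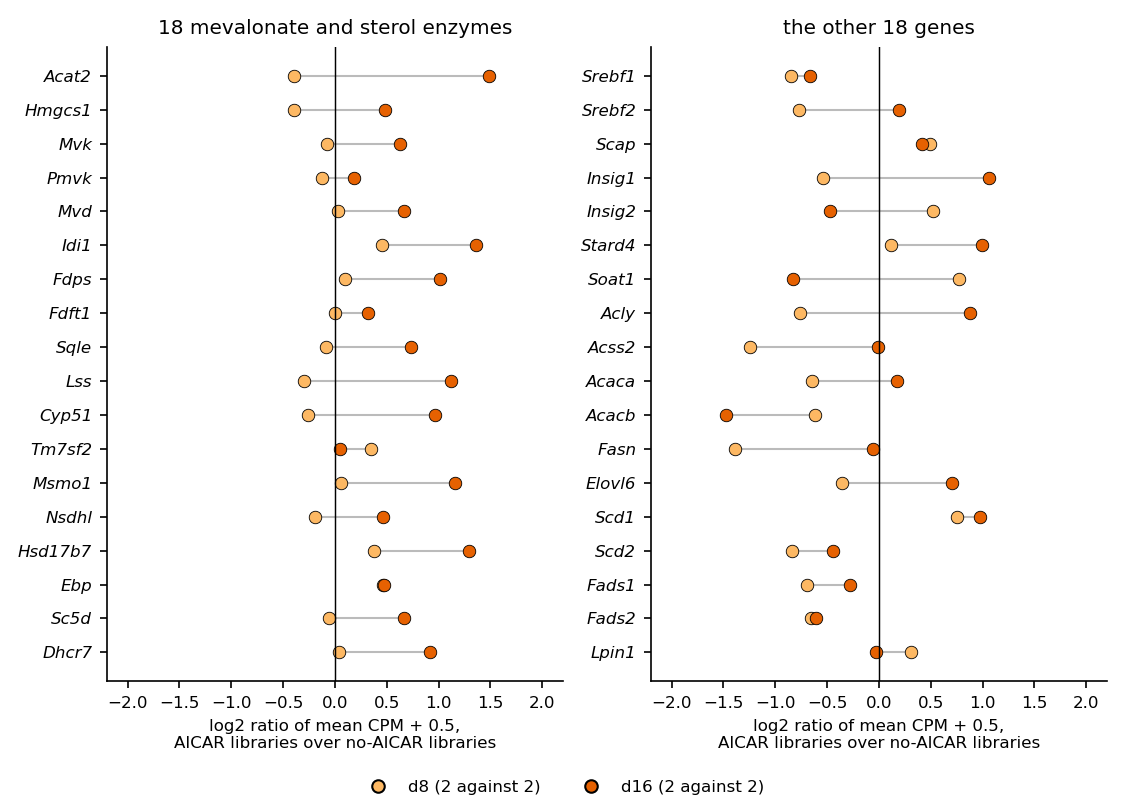
Log2 ratio of the mean CPM + 0.5 of the AICAR and AICAR+LIF libraries over that of the basal and 2iL libraries, for each of the 36 genes at d8 (light) and d16 (dark). All 18 mevalonate and sterol enzymes lie right of 0 at d16 and 9 do at d8.

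Acaca and Acacb, whose carboxylases AMPK is known to phosphorylate, gave no call with AICAR, and neither did Fasn. Acaca was at 120, 103, 86.7 and 55.6 CPM in basal, 2iL, AICAR and AICAR+LIF at d8 and at 76.4, 82.8, 103 and 76.7 CPM at d16 (-0.17 ± 0.21). Acacb, the carboxylase bound to mitochondria, was at 8.23, 3.91, 1.83 and 5.75 CPM at d8, of which the last 2 were at 2 and 3 counts, and at 35.4, 30.0, 13.3 and 9.68 CPM at d16 (-1.34 ± 0.37, adjusted p = 0.0556). Fasn was at 684, 713, 317 and 216 CPM at d8 and at 302, 416, 373 and 317 CPM at d16 (-0.68 ± 0.27, adjusted p = 0.139).

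Between d8 and d16, with treatment in the model, all 4 desaturases were called higher at d16, with Acacb, Srebf1 and Tm7sf2. That is 7 of the 36 higher and none lower, against 14.7% higher and 9.5% lower among all genes. The count higher is thus little above the share of all genes. Fads2 was at 356, 230, 217 and 155 CPM in basal, 2iL, AICAR and AICAR+LIF at d8 and at 729, 1015, 745 and 402 CPM at d16, without overlap (1.54 ± 0.22, adjusted p = 0.00742). Acacb, listed above, differed by 2.27 ± 0.40 (adjusted p = 0.0119), Scd2 by 0.92 ± 0.19 (adjusted p = 0.0182) and Tm7sf2 by 0.91 ± 0.25 (adjusted p = 0.0402). The calls fell to between 2 and 5 when single libraries were left out, lowest without AICAR d8 or AICAR d16. Tm7sf2 passed in none of these 8 fits (adjusted p up to 0.138). Scd2 did not pass in 4 of them (adjusted p up to 0.0954) and Acacb in 2 (adjusted p up to 0.0606). Mesenchymal markers rose over the same days, from between 2801 and 3172 CPM to between 5464 and 50215 CPM, and 9 of 12 were called higher; their part was not tested.

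Naive mESCs, a single library of another line, fell inside the spread of the 7 d16+10p libraries for 28 of the 36 genes, above it for 5 (Srebf1, Insig2, Acacb, Fads1 and Fads2) and below it for 3 (Insig1, Sqle and Ebp). Against the d16+2p and d16+3p libraries it fell inside for 5 genes, above for 28 and below for 3. The same shares over all genes were not computed. A spread over 7 libraries holds a further library more often than a spread over 4, so these counts cannot be compared between the groups. The naive library held 602 CPM of Scd1, 1850 CPM of Scd2 and 17.3 CPM of Soat1, values within the d16+10p ranges.

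The mevalonate and sterol enzymes moved together from library to library. Over the 11 reverted libraries the median Pearson correlation of log2(CPM + 0.5) between pairs of the 18 enzymes was 0.77 (153 pairs), against 0.02 for pairs of all genes with a mean of at least 1 CPM, and 92.8% of their pairs exceeded 0.5 against 11.6%. Over the 8 cultures it was 0.65 against 0.02. Insig1 followed the enzymes in both sets, with a median correlation with them of 0.86 and 0.70, as did Stard4, which moves cholesterol between membranes (0.81 and 0.71). The desaturases Scd2, Fads1 and Fads2 followed them in reverted cells (0.82, 0.84 and 0.86) and hardly in the cultures (0.08, 0.11 and 0.12). Elovl6 (-0.06), Soat1 (-0.21) and Scap (-0.56) did not follow them in reverted cells. These points share libraries, 2 or 3 groups and 1 normalisation, and are a description.

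Other genes of lipid metabolism, from lists written down beside the members, moved as follows. Of 16 other SREBP pathway genes, 5 were higher and none lower at d16+10p against d16+2-3p, against 4.75% and 4.61% of all genes, and 1 was higher and 5 lower against primed cells (16.7% and 19.9% of all genes). Of 10 genes of sterol handling and its regulation, 4 were higher and none lower at d16+10p against d16+2-3p. At d16+2-3p 8 of the 10 were lower than at d16, against 37.9% of all genes. Of 18 genes of fatty acid oxidation, 8 were higher at d16+10p than in primed cells and 3 lower, led by Cpt1a, the carnitine palmitoyltransferase that malonyl-CoA inhibits (3.96 on the log2 scale, adjusted p = 3.53e-07), while Acadl fell by 1.99 (adjusted p = 1.94e-05). Between d16+2-3p and d16+10p 1 of the 18 was called, Cpt1a (0.94 on the log2 scale, adjusted p = 0.021). With AICAR none of the 18 passed in edgeR.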

How the data were processed

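Poly(A) RNA of 22 libraries was read as single reads after a stranded kit. Per the labels and the study's methods, the authors aligned reads with Bowtie2 2.2.5 to mouse transcripts (Ensembl, GRCm38) and deposited raw read counts per gene, with no normalization. Alignment to transcripts can divide reads of similar genes, so values of the pairs Scd1 and Scd2, Fads1 and Fads2, and Insig1 and Insig2 may share some reads.

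Counts were analysed with edgeR 4.0.16 in R 4.3.3 (TMM factors, filterByExpr, quasi-likelihood F test, Benjamini-Hochberg adjustment at 0.05 over all genes tested). Comparisons of states were fitted over all 22 libraries by group. AICAR (with day) and day (with treatment) were fitted over the 8 cultures, and line over matched conditions. The SE is the log2 difference divided by the square root of F. DESeq2 1.42.0, limma 3.58.1 (voom), no normalization factors, no filter, fewer libraries and leaving out each library were alternatives. The code was tested on simulated counts.

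The members and lists were chosen with earlier results of these data known. All members could be named. Values by library were given, in each comparison, for the called members with the largest log2 differences (up to 4 in each direction, or the smallest p where fewer than 3 passed), and Srebf1, Srebf2, Insig1, Scap, Acaca, Fasn, Hmgcs1, Sqle, Scd1 and Scd2 were described in every group. The labels do not say that libraries came from separate cultures, so p-values measure only the spread between these samples. Total counts of 438771 to 5290163 limit precision for genes near 3 counts, and these limits cover counting error only. Gene positions came from GENCODE M21 and promoters from RefSeq.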

Additional observations from a re-analysis of the deposited data

Results flagged for a closer look

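Of 144 member and group pairs examined, 8 held a library far from the others of its group, and chance flags about 1 in 20 such groups. At d16+2-3p, Sqle was highest in AICAR+LIF d16+3p (158 CPM, next 111 CPM), Tm7sf2 was highest in AICAR+LIF d16+2p (8.77 CPM, next 5.85 CPM), and Acss2 was lowest in AICAR+LIF d16+3p (12.8 CPM, next 19.5 CPM). At d16+10p, Soat1 was highest in 129/MSM AICAR (60.3 CPM, next 28.3 CPM), Pmvk in A769662+LIF (47.2 CPM, next 31.3 CPM), Msmo1 in 129/MSM AICAR+LIF (208 CPM, next 148 CPM) and Scd2 in metformin+LIF (2482 CPM, next 1977 CPM). At d8, Hsd17b7 stood apart in AICAR (77.6 CPM, next 48.5 CPM).

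The reverted minus primed difference was not the same in the lines, by a test of the interaction, for Scd1 (-4.60 on the log2 scale, 129/MSM minus Oct4GIP), Soat1 (2.94), Acss2 (2.17) and Fads1 (1.48). Each line gave 1 primed library, so a difference between the lines and a difference between those libraries or their media cannot be told apart.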

How the results depend on the processing

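Of 456 pairs of a named gene and an alternative, 411 kept direction and side of the threshold, 44 kept direction but not the call, and 1 reversed: Scd1 in cultures against primed cells, -3.61 on the log2 scale without primed Oct4GIP and 1.002 without primed 129/MSM. Leaving out single libraries gave 8 to 20 called members for d16+10p against primed (8 without primed Oct4GIP), 16 to 21 against d16+2-3p, 24 to 29 for d16+2-3p against d16, 13 to 24 for cultures against primed (13 without primed Oct4GIP), 0 to 3 for AICAR, 2 to 5 for d16 against d8 and 0 to 3 for line. For d16+10p against d16+2-3p, 10 were called with the matched AICAR libraries and 10 with passages summed, both chosen after seeing the data. For AICAR, DESeq2 called 6, limma voom 5, no filter 9, no day term 0, and 0 remained without the 2 lowest totals. For d16 against d8, 4 were called with no treatment term. For line, no filter gave 1. For the line interaction, DESeq2 gave 2 and no filter 13. For the day and AICAR interaction, added after seeing the data, DESeq2 gave 4 and no filter 7. The causes were not tested. Treatments pair the d8 and d16 cultures, and that pairing is the treatment term of d16 against d8. No paired analysis was possible because the labels give no replicate numbers, so no replicate block could be fitted. The 2 shallowest libraries, AICAR+LIF and AICAR d8, limit what the AICAR and day comparisons can show.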
